A study of Mus musculus with 39 samples.

Results

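The jaw-closing masseter muscle of wild-type mice was compared at day 52 and day 38 after collagenase type I, which cleaves collagen, had been injected repeatedly into that muscle. The 6 libraries were chosen by their labels (masseter, 0.2 to 0.5 U of collagenase given 4 times into the masseter) out of 39 libraries in the series, of which 17 are masseter. Day 52 has 3 libraries, numbered 8, 9 and 10 by their titles, and day 38 has 3, numbered 5, 6 and 7. Both groups carry the same genotype and the same enzyme, so the day label is the difference the labels give. The series holds no saline group at day 52, and the labels do not say from which injection the days were counted, whether the libraries came from separate mice, the age or sex of the mice, or the hour of collection. The 4 masseter libraries taken at day 38 after saline in the masseter are given below as a level only, with no test against them.

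Skeletal muscle repairs a lesion through satellite cells, resident stem cells that divide, switch on the myogenic factors Myod1 and Myog and fuse into fibres that pass through embryonic and neonatal myosins. Fibroblasts, macrophages, blood vessels and nerve endings are rebuilt over the same weeks, and matrix laid down early is later remodelled. The comparison asks how far each of these programmes differs between the labelled days.

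No gene passed the threshold between the days. edgeR's quasi-likelihood test, with Benjamini-Hochberg adjustment, called 0 of 13930 genes (0% of those tested) at an adjusted p under 0.05, and the smallest adjusted p was 0.0636, a value shared by 115 genes. At an unadjusted p under 0.05 there were 2840 genes (20.4%), 1664 of them higher at day 52 (11.9%) and 1176 lower (8.44%). DESeq2 run on the same 6 libraries called 1005 of the 13314 genes it gave an adjusted p (7.55%), 588 higher (4.42%) and 417 lower (3.13%). limma voom called 2. The number of calls thus depends on the tool, and every difference below is given as a value that did not pass edgeR's test, with DESeq2's adjusted p beside the main ones. In the counts of gene lists that follow, higher and lower members are those with an unadjusted p under 0.05 from edgeR. Their share in the main fit is to be read against the 11.9% and 8.44% of all genes. Over all genes, 1541 were higher and 1220 lower of 14244 without library 8. The counts were 1549 and 1088 of 14173 without library 9, and 1254 and 773 of 14132 without library 10. They were 1250 and 1082 of 14212 without library 5, and 1355 and 930 of 14147 without library 6. Without library 7 they were 1260 and 857 of 14196, and without libraries 7 and 8 together 1507 and 1158 of 14123. The median log2 fold change of all genes tested was 0.01. With the scaling alone changed, 1538 genes were higher and 1280 lower under RLE, and 1497 higher and 1470 lower under upper quartile. limma on log2(TPM + 1), which changes both measure and test, gave a median of 0.27 with 3397 genes higher and 90 lower, so its values are to be read against 0.27. In bulk muscle, fewer cells of a type and less RNA per cell cannot be told apart.

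Total expected counts were 12.1, 20.1 and 24.5 M in the day 52 libraries and 25.0, 25.1 and 28.0 M in the day 38 libraries, so the smallest library, library 8, is also the least precise. All libraries were rich in skeletal muscle transcripts: Ckm, muscle creatine kinase, had 23377, 17763 and 18911 CPM (counts relative to library size, on TMM-scaled sizes) at day 52 and 24086, 23675 and 20941 CPM at day 38. Single libraries also held other tissue. Day 38 library 7 held salivary gland transcripts, with 44111 CPM of Smr3a, against 5.69, 7.67 and 4.3 CPM in the day 52 libraries and 8.61 and 2.57 CPM in libraries 5 and 6. Amy1, an amylase, had 32452 CPM in library 7 and 73.1, 55.6 and 59.9 CPM in the day 52 libraries. In that library 22 genes, picked by level and not by tissue, took 18.5% of the counts. Each had at least 100 CPM there and far less in each of the other 5 injected libraries. Saline library 2 held gland transcripts too, with 10325 CPM of Smr3a. Day 38 library 6 held 183 CPM of Pip, a secreted gland protein, against 3079 CPM in library 7. Bone transcripts stood out in libraries 10, 6 and 7: the osteoblast gene Ibsp had 0, 0.0891 and 23.2 CPM at day 52 and 0, 48.3 and 10.8 CPM at day 38. The tendon proteoglycan gene Fmod had 247, 1644 and 322 CPM at day 52 and 680.1, 167 and 434 CPM at day 38. Adipoq, the adipocyte hormone adiponectin, had 19.1, 18.7 and 46 CPM at day 52 and 9.66, 82.3 and 21.1 CPM at day 38. Leaving out library 7, or libraries 7 and 8 together, again gave 0 genes called, with 2117 and 2665 at an unadjusted p under 0.05. All 6 libraries carried the Y-linked gene Ddx3y, at 154, 107 and 115 CPM at day 52 and 76.3, 82.8 and 69.2 CPM at day 38.

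**Figure D1:**
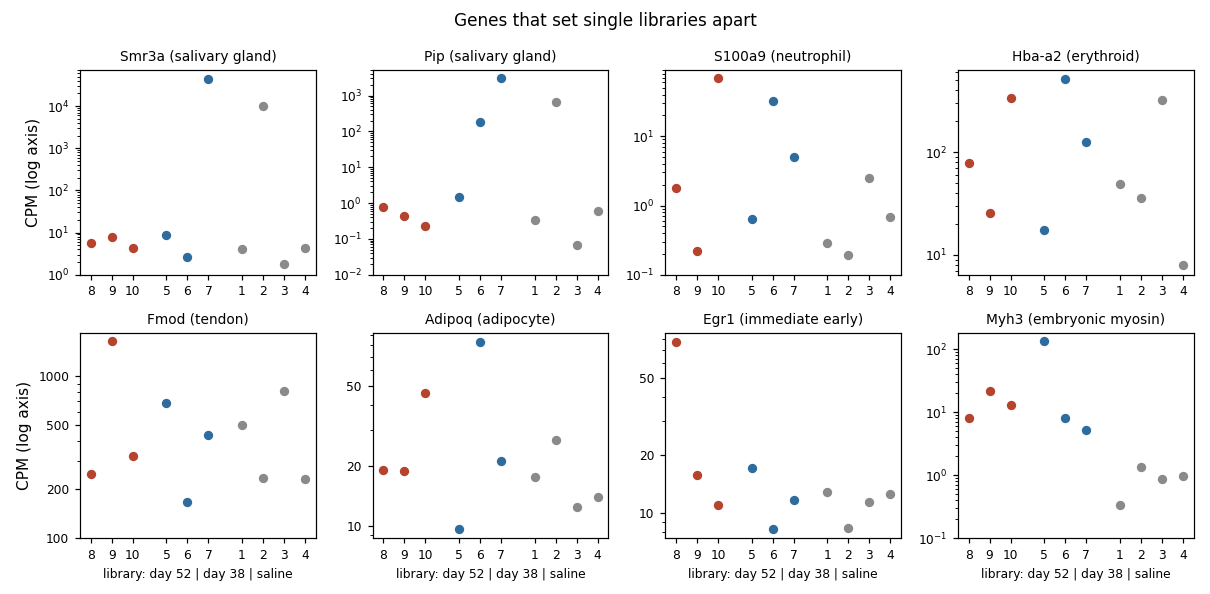
CPM on a log axis of 8 genes, each the marker of a tissue or a state, in the day 52 libraries (8, 9, 10), the day 38 libraries (5, 6, 7) and the saline day 38 libraries (1 to 4), 1 dot per library. Gland genes peak in library 7 and saline library 2. S100a9 and Hba-a2 peak in libraries 10 and 6, and Hba-a2 also in saline library 3. Fmod peaks in library 9, Egr1 in library 8 and Myh3 in library 5.

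Of the genes higher at day 52, the 12 with the smallest p and no overlap are given first, with predicted genes and clone names left out. Zfp445 (chromosome 9, 122848910 to 122886851 on GRCm38.p6, the build the submitters name as mm10), a zinc finger protein that maintains genomic imprints, had 77.3, 83 and 82.7 CPM at day 52 and 39.4, 43.2 and 38.3 CPM at day 38, a log2 fold change of 1.01 (SE 0.08, edgeR adjusted p 0.0636). The groups did not overlap, but the saline libraries ran from 39.4 to 91.3 CPM, across nearly the whole range of both. Mll3, the histone methyltransferase now named Kmt2c (chromosome 5, 25271795 to 25498855), had 97.1, 100.3 and 101 CPM at day 52 and 60.2, 67.1 and 59.8 CPM at day 38 (log2 0.67, SE 0.08). Trpm7, an ion channel fused to a kinase (chromosome 2, 126791558 to 126876261), had 71.4, 71.4 and 75.3 CPM at day 52 and 41.4, 44.8 and 45.4 CPM at day 38. Tet2, which oxidises methylated cytosine (chromosome 3, 133463677 to 133545136), had 42.5, 43.5 and 43.6 CPM at day 52 and 25.2, 27.8 and 22.4 CPM at day 38, with saline at 33.4 to 55 CPM. Gdap1, a mitochondrial outer membrane protein mutated in inherited neuropathy, showed the widest gap of the 12 with a log2 fold change of 1.31 (SE 0.14). The others were Mga, a partner of the MYC network factor MAX, the bromodomain gene Brwd1, Ccnt2, a cyclin of transcription elongation, the RNA-binding gene Bclaf1, Rnf150, the Argonaute gene Eif2c3 and AI607873. Their log2 fold changes ran from 0.60 (Brwd1) to 1.22 (AI607873), and all 12 had an edgeR adjusted p of 0.0636. AI607873, Ifi207 in RefSeq, belongs to a family of near-identical neighbours, so its counts are uncertain. In 10 of these 12 genes the saline mean lay between the 2 injected means, but the genes were picked for a gap between those groups. No share over all genes is given to read that count against.

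Transcript length moved with the day. The median length of those 12 genes was 6667 bases, against 2824 bases over all genes tested. It was 2166 bases in the 12 genes lower at day 52 that were picked by the same rule. Genes were divided into 5 equal bins by length. In the longest bin (4624 to 86627 bases) 27% had an unadjusted p under 0.05 and were higher at day 52, and 4.16% were lower. In the shortest bin (275 to 1604 bases) the shares were 2.69% higher and 14% lower. Across the 13930 genes, which are not independent replicates, Spearman's correlation of length with the log2 fold change was 0.24. The difference between the median deviations of the longest and the shortest bin was 0.08, 0.13 and 0.13 on the log2 scale in the day 52 libraries, against -0.10, -0.13 and -0.11 in the day 38 libraries. The saline libraries ran from -0.07 in library 2 to 0.20 in library 4, across both injected groups. Fragment size, as the median of length minus effective length, was 234, 231 and 228 bases in libraries 8, 9 and 10, and 231, 226 and 226 bases in libraries 5, 6 and 7. In saline libraries 1 to 4 it was 230.1, 229.97, 233 and 237 bases, so within saline the libraries with longer fragments also had the higher length difference, and libraries 6 and 7 had the shortest fragments and the lowest length differences. Library 8 had the longest fragments of day 52 and the lowest of its length differences. Libraries 9 and 5 had about the same fragment size, 231 bases, but length differences of 0.13 and -0.10. The part of fragment size and of transcript length in the differences of single genes was not tested.

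**Figure D2:**
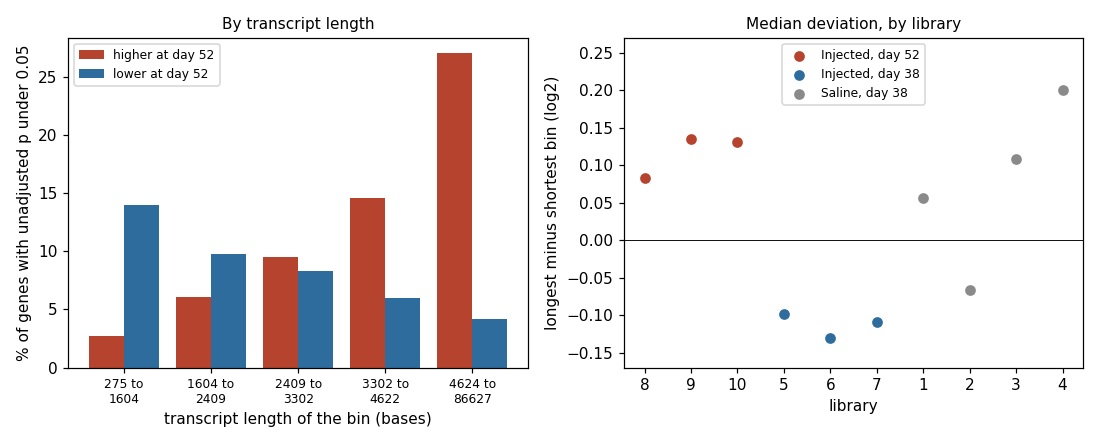
Left, percent of genes with an unadjusted p under 0.05, higher or lower at day 52, in 5 equal bins of transcript length (bases); right, the difference between the longest and the shortest bin in median deviation from the mean of the 6 injected libraries (log2), 1 dot per library. The share higher at day 52 climbs to 27% in the longest bin, and the 3 day 52 libraries lie above the 3 day 38 libraries with saline spread across both.

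Among the genes lower at day 52, Slc16a3 (chromosome 11, 120948484 to 120959000) had the smallest p. It encodes MCT4, the transporter through which fast muscle fibres export lactate, and had 151, 154 and 141 CPM at day 52 and 284, 283 and 307 CPM at day 38. The groups lay far apart, with a log2 fold change of -0.97 (SE 0.08, edgeR adjusted p 0.0636, DESeq2 adjusted p 2.70e-22). Saline libraries held 241 to 387 CPM, so day 52 was the low group. limma voom called Slc16a3 and Zfp445 at an adjusted p of 0.0457. Arhgdig, a gene of small GTPase regulation, had 0.594, 0.401 and 0.524 CPM at day 52 and 1.85, 1.65 and 2.12 CPM at day 38, against 0.655 to 0.966 CPM in saline, so here day 38 was the high group. Etv6, an ETS family repressor, had 12.6, 15.2 and 14.7 CPM at day 52 and 24.6, 25 and 23.8 CPM at day 38 (log2 -0.78, SE 0.10). Klf10, a zinc finger factor induced by TGF-beta, had 30.9, 30.1 and 35.8 CPM at day 52 and 53.6, 51.5 and 46.7 CPM at day 38, while saline libraries spread from 28.3 to 66.4 CPM. Nrarp, a feedback target of Notch signalling, had 15.9, 16.3 and 14 CPM at day 52 and 23.2, 23 and 23.8 CPM at day 38. The other 7 were the cytokine gene Mif, Impdh1 of guanine nucleotide synthesis, the lipid phosphatase gene Ppap2a, the junction gene F11r, Fam181b, the tetraspanin gene Tspan13 and the phosphatase gene Pgp, with log2 fold changes from -1.33 (Fam181b) to -0.45 (Pgp). Mif has many processed copies in the genome and its counts are uncertain. In 11 of the 12 genes the saline mean lay between the 2 injected means. These genes too were picked for a gap between the injected groups, and no share over all genes is given.

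**Figure D3:**
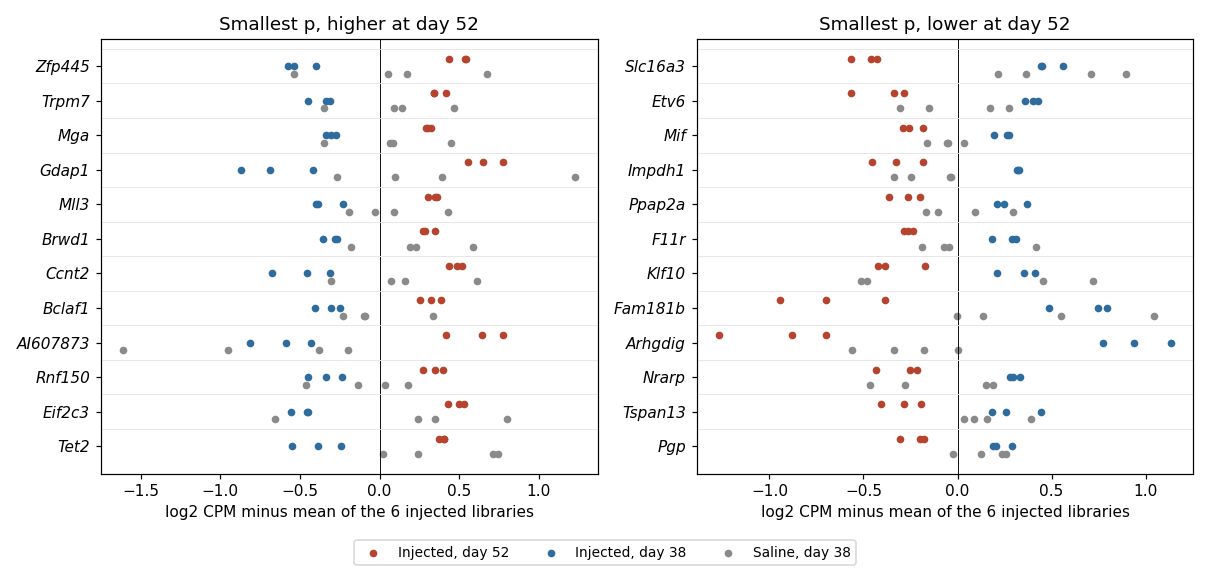
Log2 CPM of each library minus the mean over the 6 injected libraries, for the 12 genes with the smallest p and no overlap in each direction; rows hold day 52, day 38 and saline day 38 dots from top to bottom. The injected groups separate by construction of the choice, which left out predicted genes and clone names, and the saline dots of Zfp445 run across both.

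Several genes of glucose metabolism were lower at day 52. Of 21 glycolysis and glycogen genes, 7 were lower and 1 higher, with a median log2 fold change of -0.29. Gpi1, which converts glucose 6-phosphate to fructose 6-phosphate, had 697, 624 and 668 CPM at day 52 and 932, 913 and 913 CPM at day 38 (log2 -0.47, SE 0.10, edgeR adjusted p 0.0907, DESeq2 2.18e-06). Eno3, the muscle enolase, had 3387, 2921 and 3288 CPM at day 52 and 4475, 4941 and 4978 CPM at day 38, without overlap. Gapdh had 5599, 3962 and 4702 CPM at day 52 and 6853, 7358 and 7384 CPM at day 38. Saline libraries ran from 766 to 937 CPM for Gpi1 and 3977 to 5248 CPM for Eno3, above all 3 day 52 libraries in both genes. DESeq2 called 7 of the 21 lower. The count of lower genes was 16 without library 8 and 14 under upper quartile scaling. With limma on log2(TPM + 1) the median of the list was 0.04, with 3 higher and 1 lower.

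The 1 member that was higher, Pdk4, encodes a kinase that shuts pyruvate out of the mitochondrion. It had 1026, 415 and 516 CPM at day 52 and 184, 162 and 353 CPM at day 38, with saline at 338 to 1032 CPM (log2 1.48, SE 0.43, edgeR adjusted p 0.145, and 0.98 without library 8). Of 23 genes of fatty acid oxidation and PPAR signalling, 5 were higher and 1 lower, around a median of -0.04. Ppara, the lipid-sensing nuclear receptor, had 28.5, 25.3 and 26 CPM at day 52 and 18.3, 21.4 and 17.3 CPM at day 38. Ucp3, an uncoupling protein of muscle mitochondria, had 512, 116 and 184 CPM at day 52 and 55.9, 63.7 and 106 CPM at day 38 (log2 1.84, and 0.98 without library 8). Pdk4 and Ucp3 are known targets of PPAR receptors, and library 8 was the highest of the 6 for both.

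Respiratory chain transcripts had slightly lower values at day 52. All 27 nuclear oxidative phosphorylation genes had a negative log2 fold change, 8 of them with an unadjusted p under 0.05, and the median was -0.14. Over all genes in the shortest bin of transcript length the median was -0.10, with 2.69% higher and 14% lower. The part of transcript length in the values of this list was not tested. Ndufb8 of complex I had 275, 276 and 278 CPM at day 52 and 332, 364 and 335 CPM at day 38 (log2 -0.31, SE 0.08, edgeR adjusted p 0.131). Sdhb of complex II had 282, 287 and 291 CPM at day 52 and 331, 359 and 365 CPM at day 38. Cyc1 of complex III had 427, 442 and 442 CPM at day 52 and 525, 548 and 534 CPM at day 38. Atp5o of the ATP synthase had 450.0, 411 and 423 CPM at day 52 and 499, 545 and 505 CPM at day 38. The median was -0.15 under RLE and -0.18 under upper quartile scaling, with 8 and 9 lower. With limma on log2(TPM + 1) it was 0.19, below that of all genes but above 0, with 0 lower. The count of 8 became 3 without library 9, 10 or 6, 4 without library 5, 5 without library 7 and 15 without library 8.

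**Figure D4:**
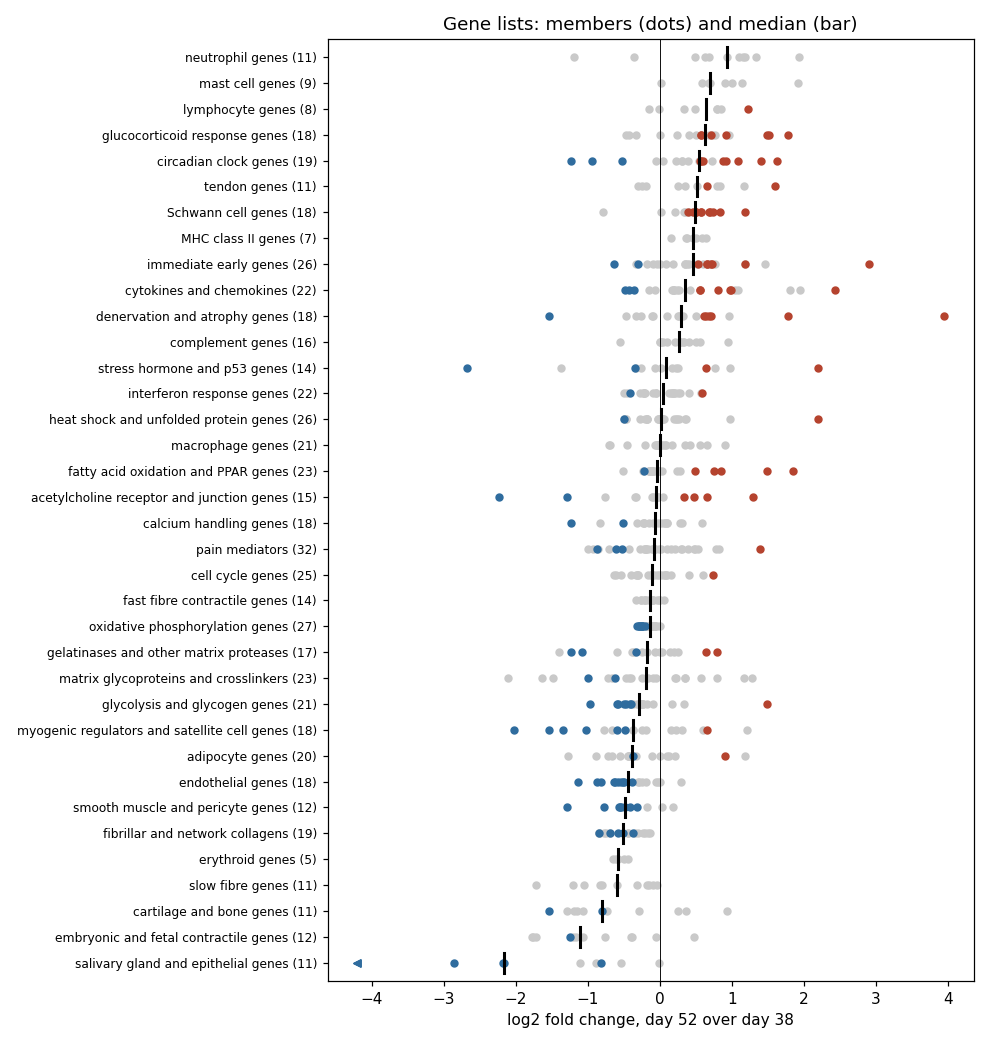
Log2 fold change, day 52 over day 38, of the tested members of 36 gene lists (number tested in brackets), with red and blue dots for members higher or lower at an unadjusted p under 0.05, grey dots for the rest, a black bar at the list's median and an arrowhead where gland genes run off the axis. No dot passed edgeR's adjusted threshold, and vessel and matrix lists have medians left of 0 while Schwann cell, clock and glucocorticoid lists have medians right of it.

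Genes of the circadian clock differed in both directions. The clock is a feedback loop in which Arntl (BMAL1) pairs with Clock or Npas2 to drive the Per, Cry, Nr1d and Dbp genes. Per and Cry proteins then repress the pair, and Nr1d receptors repress Arntl. Of 19 clock genes tested, 8 were higher and 3 lower at day 52, with a median of 0.54. DESeq2 called 6 higher and 2 lower. Nr1d2 (REV-ERB beta), a repressor of Arntl, had 220.3, 194 and 173 CPM at day 52 and 100.0, 114 and 95.5 CPM at day 38, a log2 fold change of 0.92 (SE 0.12, edgeR adjusted p 0.0636, DESeq2 3.67e-08). Per3 had 40.9, 43.5 and 34.4 CPM at day 52 and 19.97, 21.6 and 14.4 CPM at day 38 (log2 1.09). Dbp, an output transcription factor, had 137, 137 and 120.1 CPM at day 52 and 87.4, 62 and 65.9 CPM at day 38 (log2 0.87). Arntl went the other way, with 7.89, 10.8 and 11 CPM at day 52 and 17.2, 21.3 and 19.1 CPM at day 38 (log2 -0.95, SE 0.16, edgeR adjusted p 0.0676, DESeq2 7.70e-05). None of these 4 genes overlapped between the days, but they were named for their small p. The share of all genes without overlap is not given here.

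Other members were singled out after their values were seen. Per2 had 49.6, 23.6 and 33.9 CPM at day 52 and 11.4, 15.4 and 7.74 CPM at day 38 (log2 1.62). Gm129, the clock repressor Ciart in RefSeq, had 5.94, 2.54 and 3.55 CPM at day 52 and 1.73, 1.49 and 1.26 CPM at day 38 (log2 1.41). Npas2, of the driving arm, had 1.1, 2.99 and 2.17 CPM at day 52 and 3.1, 4.18 and 7.82 CPM at day 38. Bhlhe41, which is not of that arm but a repressor that competes for the same sites as Arntl, had 26.9, 38 and 35.9 CPM at day 52 and 55.3, 44.4 and 46.2 CPM at day 38. In saline libraries Nr1d2 ran from 115 to 161 CPM, Per3 from 15.7 to 25.6 CPM, Dbp from 37.1 to 77.5 CPM and Arntl from 10.2 to 21.5 CPM. Saline Per3 and Dbp were thus nearer to day 38, and saline library 4 was the highest of its group for Per2 at 25.7 CPM, against 7.6 to 25.7 CPM over the 4. Without libraries 7 and 8 the list had 7 higher and 2 lower members and a median of 0.19.

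**Figure D5:**
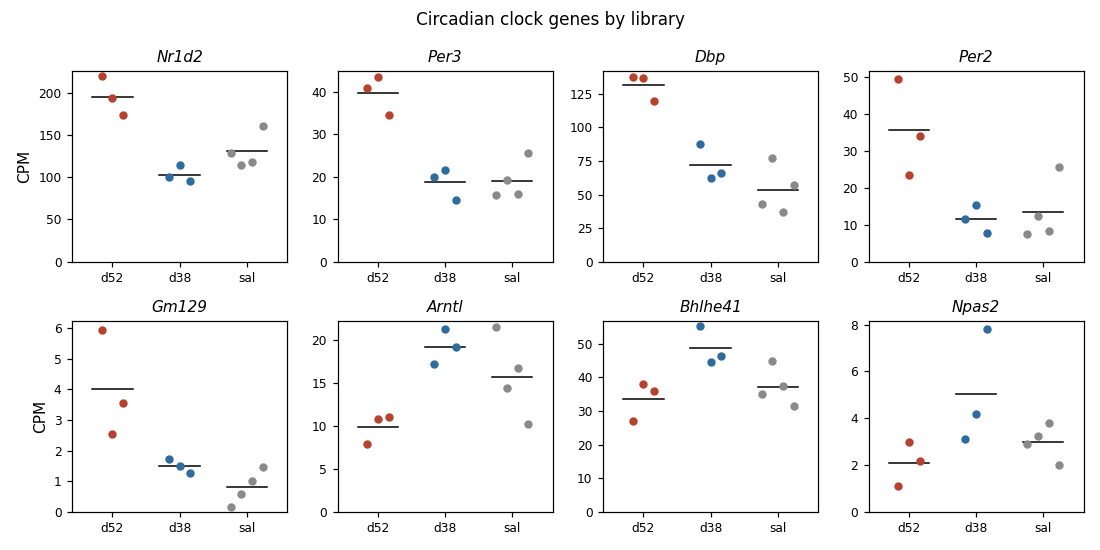
CPM of 8 circadian clock genes, 1 dot per library with a line at the group mean, for day 52, day 38 and saline day 38 (d52, d38, sal). Nr1d2, Per3, Dbp, Per2 and Gm129 are higher and Arntl, Bhlhe41 and Npas2 lower in all 3 day 52 libraries than in all 3 day 38 libraries. The 8 genes were picked by p or after their values were seen.

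Promoters of 3 of these genes are shown because they hold the short elements through which the loop is known to act: the E-box bound by BMAL1 and CLOCK (CACGTG), the D-box bound by DBP, TEF and HLF (TTATGTAA), and the half-site bound by ROR and REV-ERB receptors (AGGTCA). Each window runs from 250 bases before to 50 after the start in RefSeq on GRCm38.p6, 5′ to 3′ on the gene's strand, with matches on either strand in capitals.
Gm129 (Ciart), chr3:95882179-95882478, minus strand: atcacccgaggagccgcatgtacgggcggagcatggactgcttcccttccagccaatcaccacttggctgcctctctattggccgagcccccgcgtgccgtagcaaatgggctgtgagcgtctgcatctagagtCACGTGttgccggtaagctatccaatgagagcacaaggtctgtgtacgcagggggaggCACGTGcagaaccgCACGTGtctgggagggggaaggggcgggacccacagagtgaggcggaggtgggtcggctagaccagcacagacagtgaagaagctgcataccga
Per3, chr4:151044616-151044915, minus strand: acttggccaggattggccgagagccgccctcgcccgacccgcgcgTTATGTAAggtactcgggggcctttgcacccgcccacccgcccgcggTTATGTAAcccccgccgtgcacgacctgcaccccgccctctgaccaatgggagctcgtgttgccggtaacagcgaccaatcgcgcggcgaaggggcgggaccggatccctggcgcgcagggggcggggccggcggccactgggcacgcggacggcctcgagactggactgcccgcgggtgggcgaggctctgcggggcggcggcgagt
Arntl, chr7:113207261-113207560, plus strand: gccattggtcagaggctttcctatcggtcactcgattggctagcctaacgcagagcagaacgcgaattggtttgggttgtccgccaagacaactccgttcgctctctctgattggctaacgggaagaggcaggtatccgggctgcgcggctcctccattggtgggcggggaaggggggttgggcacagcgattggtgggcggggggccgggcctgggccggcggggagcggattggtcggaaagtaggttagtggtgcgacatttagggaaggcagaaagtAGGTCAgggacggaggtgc
The Gm129 window held 3 E-boxes, the Per3 window 2 D-boxes and the Arntl window shown 1 receptor half-site, while the other Arntl window, for an earlier start, held no match of the 3. The 16 clock genes in the table have 21 windows, of which 6 held the E-box, 5 the half-site and 1 the D-box. Over all 32851 windows of that length the shares were 7.15% for the E-box, 16.3% for the half-site and 0.938% for the D-box. A match describes letters only, and the windows of Dbp and Nr1d2 held no E-box.

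A part of the genes that respond to glucocorticoid hormone was also higher at day 52. Of 18 tested, 7 were higher and 0 lower, with a median of 0.63, and DESeq2 called 3 higher. Zbtb16, a strongly induced zinc finger gene, had 213, 86 and 146 CPM at day 52 and 68.8, 51.8 and 35.3 CPM at day 38 (log2 1.52, SE 0.37, edgeR adjusted p 0.116, DESeq2 4.50e-04). Fkbp5, a chaperone that damps the receptor, had 166, 81.6 and 130.3 CPM at day 52 and 63.2, 63.6 and 73.2 CPM at day 38. Klf9 had 301, 268 and 232 CPM at day 52 and 194, 198 and 146 CPM at day 38. Saline libraries had 71.5 to 123 CPM of Zbtb16 and 96.4 to 136 CPM of Fkbp5, ranges that reach the day 52 values. The list shares Pdk4 with the glycolysis list and Per1 with the clock list. Its median was 0.26 without library 8 and 0.18 without libraries 7 and 8, and without library 7 there were 4 higher and 2 lower.

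Cish, a feedback inhibitor of cytokine and growth hormone signalling through STAT5, had the highest log2 fold change of the listed genes. It had 439, 149.7 and 137 CPM at day 52 and 25.8, 8.04 and 13.2 CPM at day 38, a log2 fold change of 3.94 (SE 0.64, edgeR adjusted p 0.0636, DESeq2 9.08e-06), and 3.18 without library 8. The days did not overlap, but the saline libraries ran from 18.2 to 198 CPM and so covered much of the range. It stands in the list of 18 denervation and atrophy genes, of which 6 were higher and 1 lower. The median was 0.29, with 0.18 without library 8 and 0.54 without library 5. Fbxo30, a ubiquitin ligase of atrophy, had 36.3, 26 and 28 CPM at day 52 and 19.6, 21.4 and 17.8 CPM at day 38, and Eda2r, a receptor linked to muscle wasting, had 40.0, 35.5 and 42.5 CPM at day 52 and 29.1, 27.4 and 19.6 CPM at day 38. Hdac4, a deacetylase that rises after denervation, had 29.9, 19.7 and 24.9 CPM at day 52 and 17.2, 12 and 16.1 CPM at day 38. Myog was the member that was lower, with values given below.

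Immediate early genes, which any acute stimulus switches on within minutes, were led by library 8. Of 26 tested, 7 were higher and 2 lower, with a median of 0.45, but without library 8 there were 3 higher and 2 lower and a median of 0.14. The count of higher members was also 3 without library 5 or library 7, and 12 without library 10. Egr1 had 76.4, 15.7 and 11 CPM at day 52 and 17.1, 8.28 and 11.7 CPM at day 38. Klf4, a factor of endothelium and smooth muscle, was less bound to that library, with 81.6, 60.9 and 61 CPM at day 52 and 35.6, 45.7 and 47.6 CPM at day 38 (log2 0.66, SE 0.16, edgeR adjusted p 0.116). Myc had 11.8, 8.78 and 8.76 CPM at day 52 and 5.76, 4.9 and 7.25 CPM at day 38.

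Many genes of the vessel lining were lower at day 52. Of 18 endothelial genes, 10 were lower and 0 higher, with a median of -0.45, and DESeq2 called the same number, 10, lower. Cdh5, the cadherin that joins endothelial cells, had 155, 187 and 174 CPM at day 52 and 293, 284 and 229 CPM at day 38 (log2 -0.64, SE 0.13, edgeR adjusted p 0.0859, DESeq2 1.17e-04). Eng, a co-receptor for TGF-beta, had 74.3, 82.4 and 90.8 CPM at day 52 and 127, 147 and 109 CPM at day 38. Tie1, an angiopoietin co-receptor, had 93.4, 97.1 and 87.9 CPM at day 52 and 140.1, 151 and 113 CPM at day 38. Emcn, a sialomucin of capillaries and veins, had 14.6, 22.6 and 21.4 CPM at day 52 and 34.1, 43.4 and 30.1 CPM at day 38. The saline libraries had 273 to 299 CPM of Cdh5 and 117 to 142 CPM of Eng, at the day 38 level and above all 3 day 52 libraries. Leaving out any 1 library left 10 or 11 lower members. With limma on log2(TPM + 1) the median of the list was -0.10 against 0.27 for all genes, with 1 lower and 1 higher.

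Genes of the vessel wall went the same way. Of 12 smooth muscle and pericyte genes, 8 were lower and 0 higher, with a median of -0.49, and DESeq2 called 4. The count of lower members was 4 without library 10, and 1 with limma on log2(TPM + 1). Acta2, smooth muscle actin, had 125, 113 and 113 CPM at day 52 and 182, 240.1 and 180.3 CPM at day 38 (log2 -0.78, SE 0.13, edgeR adjusted p 0.0672, DESeq2 1.63e-05). Saline Acta2 was 93.2 to 144 CPM, at the day 52 level. Notch3, the Notch receptor of mural cells, had 50.7, 56.2 and 59.2 CPM at day 52 and 77.4, 81.3 and 74.5 CPM at day 38, and its saline values, 85.7 to 94.8 CPM, were above both. Cnn1, a calponin of contractile smooth muscle, had 5.77, 4.32 and 5.39 CPM at day 52 and 7.69, 19.4 and 10.6 CPM at day 38, and its log2 fold change of -1.28 was -0.82 without library 6. Kcnj8, a potassium channel of pericytes, had 21.6, 28.8 and 24.2 CPM at day 52 and 31, 32.3 and 36.8 CPM at day 38.

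Many genes of Schwann cells, the glia of peripheral nerve, were higher at day 52. Of 18 tested, 11 were higher and 0 lower, with a median of 0.48, and DESeq2 called 4. Ncmap, a myelin membrane protein, had 19.4, 19.9 and 17 CPM at day 52 and 12.1, 12.4 and 9.25 CPM at day 38 (log2 0.74, SE 0.15, edgeR adjusted p 0.0887). Cldn19, a junction protein of myelin, had 17.1, 23.5 and 19 CPM at day 52 and 14.5, 14.3 and 11.3 CPM at day 38. Egr2, the factor that drives myelination and also an immediate early gene, had 12.1, 6.11 and 5.46 CPM at day 52 and 3.9, 3.9 and 2.49 CPM at day 38. Saline library 2, which also held gland transcripts, was the highest of all 10 libraries for Ncmap at 30.3 CPM, and the saline range was 9.89 to 30.3 CPM. The summed level of the list was 977, 1398 and 1078 CPM at day 52 and 876, 873 and 792 CPM at day 38, against 809 to 2281 CPM in saline. Without library 9 the count of higher members was 5, without library 10, 5 or 7 it was 7, and with the saline libraries in the fit it was 4. How much nerve each piece of tissue held was not measured, and its part was not tested.

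At the neuromuscular junction, where the motor nerve meets the fibre, 4 genes that build the adult synapse were higher. Of 15 acetylcholine receptor and junction genes, 4 were higher and 2, Chrng and Chrna9, lower (median -0.06). Over the list 5 had a positive and 10 a negative log2 fold change, and DESeq2 called 1 higher and 0 lower. Without library 10 or 5 there were 2 higher and 1 lower, and without library 7 there were 2 higher and 4 lower. Musk, the kinase that clusters receptors under the nerve ending, had 27.4, 17.8 and 19.7 CPM at day 52 and 10.8, 8.6 and 7.05 CPM at day 38, without overlap (log2 1.29, SE 0.22, edgeR adjusted p 0.0676, DESeq2 4.29e-05). Chrne, the adult epsilon subunit, had 14.6, 15.1 and 14.6 CPM at day 52 and 11.5, 9.36 and 10.9 CPM at day 38. Dok7, an activator of MuSK, had 13.8, 11.8 and 16.2 CPM at day 52 and 8.49, 11.4 and 6.68 CPM at day 38, and Lrp4, the agrin receptor, had 18.3, 23 and 20.7 CPM at day 52 and 16.6, 17.2 and 15.6 CPM at day 38. The fetal gamma subunit Chrng had 1.27, 1.69 and 1.53 CPM at day 52 and 17.6, 2.25 and 1.63 CPM at day 38, with saline at 0.0406 to 0.241 CPM. Its log2 fold change of -2.23 was -0.36 without library 5. All 6 injected libraries were above all 4 saline libraries for Chrng.

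Chrna9, an acetylcholine receptor subunit best known from hair cells, had 0.679, 0.579 and 0.786 CPM at day 52 and 1.93, 1.45 and 1.63 CPM at day 38, against 7.48 to 11.6 CPM in saline libraries. All 6 injected libraries were below saline, and day 52 was the lower of the days (log2 -1.28 between the days, SE 0.30, edgeR adjusted p 0.11, DESeq2 0.061).

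Embryonic contractile genes, which mark young fibres, were carried by library 5 at day 38. Of 12 embryonic and fetal contractile genes, 0 were higher and 1 lower, with a median of -1.11 that became 0.27 without library 5. Without library 7 there were 3 lower. Myh3, embryonic myosin, had 7.98, 21.6 and 13.1 CPM at day 52 and 133, 8.2 and 5.13 CPM at day 38, with saline at 0.334 to 1.35 CPM. Library 5 stood far above all others, the days overlapped, and every injected library was above every saline library. Myl4, an embryonic light chain, had 16.6, 25.4 and 22.8 CPM at day 52 and 117, 19 and 9.9 CPM at day 38, with saline at 1.58 to 3.04 CPM. Tnnt2, cardiac troponin T of young fibres, had 2.8, 4.55 and 3.44 CPM at day 52 and 32, 3.17 and 2.16 CPM at day 38. Tnni1, slow troponin I, had 4.5, 5.7 and 6.1 CPM at day 52 and 44.6, 6.03 and 3.75 CPM at day 38. Without library 5 the log2 fold changes of Myh3 (-1.77 with it) and Myl4 (-1.16 with it) were 1.10 and 0.59. Myh8, neonatal myosin, which adult masseter keeps, had 375, 747 and 329.6 CPM at day 52 and 1091, 421 and 387 CPM at day 38, against 1071 to 1331 CPM in saline. Actc1, cardiac actin, was the member that was lower, at 53.9, 73 and 83.3 CPM at day 52 and 272, 105 and 124 CPM at day 38, but its saline values of 105 to 245 CPM were nearer to day 38 (log2 -1.25, and -0.70 without library 5).

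Of 18 myogenic and satellite cell genes, 6 were lower and 1 higher at day 52 (median -0.37), and without library 8, 10 or 5 there were 3 lower. The median without library 5 was -0.13. Myod1, the factor of activated satellite cells, had 15.1, 39.4 and 52.8 CPM at day 52 and 94.4, 93.9 and 86.5 CPM at day 38, with saline at 47.4 to 76.8 CPM (log2 -1.34, SE 0.39, edgeR adjusted p 0.145, DESeq2 0.00425). Myog, which follows it in differentiation, had 4.33, 12.1 and 8.57 CPM at day 52 and 43, 18.1 and 12.5 CPM at day 38 (log2 -1.54, and -0.86 without library 5). Tmem8c, the fusion gene myomaker, had 1.78, 2.72 and 2.21 CPM at day 52 and 21.3, 3.9 and 2.49 CPM at day 38 (log2 -2.02, and -0.50 without library 5). Gm7325, the fusion gene myomixer, had 1.44, 2.41 and 1.87 CPM at day 52 and 5.43, 4.26 and 2.04 CPM at day 38. In saline Tmem8c was 0.0406 to 0.573 CPM, and Gm7325 had 0 counts in all 4 libraries. Both fusion genes were thus above saline in every injected library. The Notch target Heyl, a gene of quiescent satellite cells and vessel walls, had 17.5, 15.3 and 15.8 CPM at day 52 and 29, 24 and 20.2 CPM at day 38. Chodl, a lectin gene, was the higher one, with 11.5, 10.1 and 8.87 CPM at day 52 and 6.8, 6.15 and 6.23 CPM at day 38. Pax7, the factor of satellite cells, had 2.04, 3.08 and 3.37 CPM at day 52 and 3.66, 2.01 and 1.67 CPM at day 38, with overlap.

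Sln encodes sarcolipin, which slows the calcium pump of the fibre and is made again in diseased muscle. It had 6.11, 8.87 and 14.8 CPM at day 52 and 30.8, 26.8 and 13.4 CPM at day 38, against 0.29 to 1.17 CPM in saline (log2 -1.24, SE 0.40, edgeR adjusted p 0.172, DESeq2 0.0201). Every injected library was above every saline library, and the days overlapped at libraries 10 and 7. Pln, its relative phospholamban, had 4.33, 4.41 and 5.01 CPM at day 52 and 6.16, 7.23 and 6.36 CPM at day 38. These were the 2 lower members among 18 calcium handling genes, with 0 higher and a median of -0.06, and without library 8 or 7 there were 4 lower. Of 14 fast fibre contractile genes 0 were higher and 0 lower (median -0.13), and likewise 0 of 11 slow fibre genes in either direction (median -0.59, and -0.08 without library 5). Without library 8 there were 7 lower among the fast fibre genes, and without library 7 there were 4 lower among the slow fibre genes.

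Collagen genes had lower values at day 52, some by little. All 19 collagen genes had a negative log2 fold change, 5 with an unadjusted p under 0.05, around a median of -0.50, and DESeq2 called 4. The median was -0.80 without library 9 and -0.33 without library 5. With limma on log2(TPM + 1) the median was -0.24, with 0 lower. Col4a1, a chain of the basement membrane around vessels and fibres, had 327, 362 and 329 CPM at day 52 and 593, 442 and 411 CPM at day 38. Its partner chain Col4a2 had 193, 247 and 228 CPM at day 52 and 397, 320.1 and 285 CPM at day 38. The log2 fold change of Col4a2 was -0.58 (SE 0.15, edgeR adjusted p 0.129, DESeq2 0.00592), and its saline values of 349 to 433 CPM lay above all 3 day 52 libraries. Col15a1, a basement membrane collagen, had 43.9, 72.4 and 67.5 CPM at day 52 and 109, 86.4 and 102 CPM at day 38. Col18a1 had 27.2, 35.4 and 36.4 CPM at day 52 and 89.9, 41.7 and 46.7 CPM at day 38, a log2 fold change of -0.84 that was -0.42 without library 5. The summed level of the list was 1837, 4765 and 3565 CPM at day 52 and 6600.0, 4738 and 4099 CPM at day 38, with library 8 lowest, against 3013 to 5798 CPM in saline.

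Of 23 other matrix genes, 2 were lower and 0 higher (median -0.19, and 0.09 without library 5, where 0 were lower, and -0.49 without library 9). Cilp, a matrix protein of scarred muscle and heart, had 30.6, 67.7 and 63.3 CPM at day 52 and 135, 109 and 81.1 CPM at day 38, against 15.1 to 36.2 CPM in saline (log2 -1.003, SE 0.32, edgeR adjusted p 0.165, DESeq2 0.0142). Sparc, a collagen chaperone, had 442, 815 and 737 CPM at day 52 and 1175, 1032 and 850.4 CPM at day 38. Postn, periostin, a wound matrix protein, had 18.7, 90.8 and 104 CPM at day 52 and 406, 169 and 91.8 CPM at day 38, with saline at 16.3 to 26.6 CPM. Tnc, tenascin C, had 8.66, 19.6 and 30.2 CPM at day 52 and 111, 34.4 and 21.5 CPM at day 38. Library 5 was the highest for both, library 8 the lowest, and the log2 fold changes of -1.64 for Postn and -1.49 for Tnc were -0.87 and -0.50 without library 5.

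Collagenase-related genes of the host were mixed. Of 17 proteases and inhibitors tested, 2 were higher and 3 lower (median -0.18), and without library 8, 10, 5 or 7 there were 0 higher. The median without library 8 was 0.08. Timp1, an inhibitor of metalloproteinases, had 2.29, 2.09 and 3.59 CPM at day 52 and 6.28, 8.08 and 4.52 CPM at day 38, against 0.447 to 2.15 CPM in saline (log2 -1.23, SE 0.31, edgeR adjusted p 0.119, DESeq2 0.0133). Its relative Timp4 was higher, with 74.4, 65.2 and 67.4 CPM at day 52 and 32.2, 60.7 and 39.3 CPM at day 38. Timp3, a matrix-bound inhibitor, had 778, 325 and 433 CPM at day 52 and 269, 364 and 253 CPM at day 38, with overlap. Mmp15, a membrane protease, had 63.4, 75.6 and 67.5 CPM at day 52 and 85.3, 88 and 87.8 CPM at day 38. Adamts4, an aggrecanase, had 0.934, 1.47 and 1.42 CPM at day 52 and 4.35, 1.65 and 2.24 CPM at day 38. Mmp12, macrophage elastase, was close on both days with 1.87, 4.86 and 4.98 CPM at day 52 and 1.73, 3.74 and 4.85 CPM at day 38, while saline had 0.0483 to 0.191 CPM, below every injected library. The gelatinase Mmp2 had 50.6, 123 and 107 CPM at day 52 and 115, 106 and 147 CPM at day 38. Mmp9, which marrow cells also make, was highest in libraries 6 and 10. It had 2.8, 8.91 and 41.3 CPM at day 52 and 2.78, 46.9 and 19.8 CPM at day 38.

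Macrophage genes were spread about evenly around 0. Of 21 macrophage genes 0 were higher and 0 lower, 10 had a positive and 11 a negative log2 fold change, and DESeq2 called 0. The median ran from -0.27 without library 9 to 0.26 without library 8. Their summed level was 306, 756 and 679.6 CPM at day 52 and 691, 395 and 635 CPM at day 38, against 154 to 364 CPM in saline. Cd163, a scavenger receptor of resident macrophages, had 18.3, 22.2 and 24.8 CPM at day 52 and 11.9, 5.26 and 17.9 CPM at day 38, without overlap but with an unadjusted p above 0.05. All 7 MHC class II genes had a positive log2 fold change but 0 were higher (median 0.47), and without library 9 the median was -0.14. Their summed level was 239, 925 and 511 CPM at day 52 and 476, 218 and 569.8 CPM at day 38. Neutrophil genes were highest in libraries 10 and 6: S100a9 had 1.78, 0.223 and 68.4 CPM at day 52 and 0.644, 31.9 and 4.97 CPM at day 38. The source of these transcripts was not tested.

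Several chemokine genes were higher at day 52. Of 22 cytokine and chemokine genes tested, 6 were higher and 3 lower (median 0.34), and DESeq2 called 3 higher and 1 lower. Il33, an alarmin of fibroblasts and endothelium, had 22.5, 23.5 and 22 CPM at day 52 and 14.3, 15.1 and 16.7 CPM at day 38, against 12.2 to 16.9 CPM in saline (log2 0.56, SE 0.10, edgeR adjusted p 0.0698, DESeq2 0.00341). Ccl11, eotaxin, the attractant of eosinophils, had 58.8, 43.5 and 53.7 CPM at day 52 and 20.5, 24.2 and 34.8 CPM at day 38, with saline at 28.4 to 40.2 CPM (log2 0.97). Ccl7, a monocyte attractant, had 6.96, 1.6 and 1.16 CPM at day 52 and 0.523, 0.442 and 0.774 CPM at day 38, and its log2 fold change of 2.43 was 1.23 without library 8. The count of lower members was 1 without library 6 or 7. Cxcl12, the stromal factor that retains stem cells, was lower, with 126, 168 and 179.8 CPM at day 52 and 227, 240.4 and 195 CPM at day 38 (log2 -0.48, SE 0.15).

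Because the series models pain of the chewing muscles, 42 mediators of pain were followed, of which 32 were expressed enough to test. Of these 1 was higher and 3 lower (median -0.08). Nos2, inducible nitric oxide synthase, had 10.1, 12.3 and 9.32 CPM at day 52 and 15.1, 16 and 14.4 CPM at day 38, without overlap (log2 -0.52, SE 0.14, edgeR adjusted p 0.133, DESeq2 0.0423). Ptger4, a prostaglandin E2 receptor, had 2.12, 2.9 and 3.74 CPM at day 52 and 4.87, 6.15 and 5.22 CPM at day 38, and Ednra, the endothelin A receptor, had 5.26, 6.51 and 8.46 CPM at day 52 and 8.82, 10.6 and 11.6 CPM at day 38. Bdnf, a neurotrophin that sensitises nociceptors, was the higher one with 4.33, 1.47 and 1.2 CPM at day 52 and 0.805, 0.924 and 0.856 CPM at day 38, led by library 8, without which its log2 fold change of 1.39 was 0.61. Saline libraries had 11.3 to 18.9 CPM of Nos2, 3.43 to 5.24 CPM of Ptger4 and 0.406 to 3.11 CPM of Bdnf, and each of these ranges overlapped both days. Ptgs2, the inducible cyclooxygenase, had 1.36, 0.891 and 0.561 CPM at day 52 and 0.483, 0.643 and 0.448 CPM at day 38. Calca, which encodes the sensory nerve peptide CGRP, was at or near 0 counts in the muscle, at most 0.112 CPM at day 52 and 0.121 CPM at day 38, and was not tested.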

How the data were processed

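The labels' protocols describe oligo-dT selection of messenger RNA and a kit that marks strand, read single-end or paired-end; the 6 libraries are all paired-end. The submitters' processing notes name bcl2fastq, Trim Galore, RSEM and build mm10, and the sources used here give no versions, annotation or strand setting. The deposited expected count is RSEM's estimate per gene, not scaled, per the file headers. The deposited TPM is relative to all transcripts of a library, per the file headers, and served 2 alternatives. The deposited length and effective length gave the fragment size, over genes with more than 50 expected counts.

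Expected counts were rounded to whole numbers. Genes kept by filterByExpr (13930 of 23412) were scaled by TMM and tested in the 6 libraries alone by edgeR 4.0.16 in R 4.3.3 with limma 3.58.1 (quasi-likelihood, Benjamini-Hochberg, adjusted p under 0.05). SE is the one implied by the F statistic. DESeq2 1.42.0 was an alternative. Printed levels are CPM on TMM-scaled sizes over 10 libraries, the saline day 38 group included; a mean is over 3 libraries unless stated. In counts simulated with the same low spread for every gene, the edgeR step recovered known changes. That low-spread run does not show its power at the spread of these libraries. Another run used the common spread estimated from these 6 libraries, and its recovery is not given here. Libraries of 1 group differed by a chi-square per gene of 27.1 to 399, the 2 highest in pairs with library 7, so none looked like 1 library deposited again. No label says that libraries are separate mice, so a p-value covers the spread among these libraries, which may be technical.

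The members and the 37 gene lists were chosen with earlier results of these data known, and no list was tested as a set. The rule allowed naming, per direction, the 12 genes with the smallest p, a mean of at least 1 CPM and no overlap of libraries, up to 4 members of a list by p, all members of the lists of embryonic, myogenic, junction, protease and pain genes, and tissue markers at least 5 times higher in 1 library; others were chosen after their values were seen. 10 symbols were matched by a synonym, and 23252 of 23412 symbols matched RefSeq's GRCm38.p6 table. Genes with near-identical copies or antisense partners are uncertain.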

Additional observations from a re-analysis of the deposited data

Results flagged for a closer look

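Dixon's criterion was applied only to the saline group, which has 4 libraries, for the 46 genes whose saline levels are given. The injected groups, of 3 libraries each, were not checked by it. By it 1 library stood apart for 5 of them, and chance marks about 1 in 20 groups. Chrng was highest in saline library 2 at 0.241 CPM, Myod1 was lowest in saline library 1 at 47.4 CPM, Postn was highest in saline library 1 at 26.6 CPM, and saline library 2 was highest for both Smr3a at 10325 CPM and Asns at 12.1 CPM.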

How the results depend on the processing

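No gene was called by edgeR under RLE or upper quartile scaling, with no filter on low counts, or with counts thinned to the smallest library. Nor was any called with the saline day 38 or all 13 paired-end masseter libraries in the fit. The same held without the 22 genes of library 7 picked by level, without libraries 7 and 8, and with limma on log2(TPM + 1). In these settings 2599 to 3487 genes had an unadjusted p under 0.05. DESeq2 called 1005 genes (588 higher, 417 lower), limma voom 2 (1 higher, 1 lower), limma on log2(TPM + 0.1) 2 (1 higher, 1 lower) and edgeR with all 17 masseter libraries 14 (11 higher, 3 lower). At an adjusted p under 0.10, chosen after seeing the data as were the settings on library 7, edgeR called 353 (295 higher, 58 lower). Leaving out each library in turn gave 0 to 1 genes called, 0 higher and 0 to 1 lower, the 1 being Prom2 without library 5. The cause of these differences was not tested.

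Of 2071 log2 fold changes of 109 genes under an alternative, 1973 kept direction and side of the threshold, 86 kept direction and passed the threshold and 12 turned. With limma on log2(TPM + 1) and on log2(TPM + 0.1), where the median of all genes was 0.27 and 0.32, Ndufb8 turned to 0.033 and 0.033, Sdhb to 0.046 and 0.046, Cyc1 to 0.045 and 0.045, and Atp5o to 0.074 and 0.074. Leaving out each library in turn, Myh3 ranged from -2.30 to 1.10, Tnni1 from -2.20 to 0.16, Tnnt2 from -2.27 to 0.44 and Myl4 from -1.64 to 0.59, each highest without library 5. Low levels are least precise in library 8, the smallest library. No paired analysis was possible because the 6 libraries carry 6 different numbers.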

Other observations

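Several groups had few members that differed. Of 20 adipocyte genes 1 was higher and 1 lower. Plin4, a coat protein of lipid droplets that muscle fibres also make, had 449.7, 363 and 364 CPM at day 52 and 188, 236 and 202 CPM at day 38 (log2 0.91, SE 0.13, edgeR adjusted p 0.0636, DESeq2 4.28e-07). The median of that list was -0.38, and 0.60 without library 6. Of 26 heat shock and unfolded protein genes 1 was higher and 1 lower, with 4 lower without library 5, and 3 higher and 2 lower without library 9. Chac1, a glutathione-degrading enzyme of the integrated stress response, had 74.2, 68.2 and 30.2 CPM at day 52 and 23.9, 5.75 and 8.03 CPM at day 38, with saline at 3.76 to 25.3 CPM. Cryab, a small heat shock protein of muscle, had 378, 408 and 417 CPM at day 52 and 516, 549 and 629 CPM at day 38. Of 22 interferon response genes 1 was higher and 1 lower, with 4 higher without library 8 and 4 lower without library 9. Of 25 cell cycle genes 1 was higher and 0 lower. Of 16 complement genes 0 were higher or lower (median 0.27), and 4 were higher without library 8. Of 9 mast cell genes 0 were higher or lower (median 0.70), and 6 were higher without library 7. Gdf15, a stress hormone, had 1.44, 2.09 and 4.6 CPM at day 52 and 2.38, 2.77 and 1.83 CPM at day 38, both above the 0.069 to 0.334 CPM of saline.

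Asns, the asparagine synthetase gene that the same stress response induces, went the other way from Chac1, with 3.73, 3.16 and 4.23 CPM at day 52 and 3.82, 10.6 and 57.1 CPM at day 38, against 2.05 to 12.1 CPM in saline. It was highest in library 7 and saline library 2, the libraries with gland transcripts, whose part was not tested. All 4 Y-linked genes tested were higher at day 52. The count was 2 without library 9 or 6, 3 without library 8 or 7, and 4 without library 10 or 5. Of these genes, Uty had 21.3, 18.6 and 21.1 CPM at day 52 and 14, 13.8 and 11.2 CPM at day 38, while saline ran from 11.6 to 24 CPM. Nr4a3, an immediate early receptor gene of exercised muscle, had 62.9, 2.54 and 11.3 CPM at day 52 and 2.66, 4.66 and 2.81 CPM at day 38, with library 8 far above the others. Mt2, a metallothionein that glucocorticoids induce, had 129, 29.9 and 24.1 CPM at day 52 and 18.4, 16.1 and 18.3 CPM at day 38, with saline at 10.1 to 22.5 CPM. Asns, Uty, Nr4a3 and Mt2 were chosen after their values were seen.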
